A study of Mus musculus with 15 samples.

Results

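The genes of translation factors and aminoacyl-tRNA synthetases were examined in the accessible chromatin of mouse pancreatic islets. Members were the peaks that the authors had annotated to a gene with a symbol beginning with Eif and a digit, with Eef, or made of a 1-letter or 2-letter prefix and ars, ars1 or ars2. The eIF2 kinases (Eif2ak genes) were left out. The rule uses gene symbols and no measured value. It gave 62 genes of the 10268 with a peak in any comparison. The comparison of genotypes before surgery held 46 member peaks of 7826, and that after surgery held 74 of 13111. The comparison of times held 45 of 8070 peaks in control islets and 72 of 12767 in knockout islets. Of the 62 genes, 39 were listed in all 4 comparisons, and no peak was annotated to Tufm or Tsfm, the mitochondrial elongation factors covered by the same rule.

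The assay was ATAC-seq, which uses the Tn5 transposase to cut accessible DNA and sequences the fragments. All mice were 3-month-old males that carried floxed Arid1a alleles (Arid1aFl/Fl) and the MIP-rtTA transgene, and the control mice carried nothing further. The knockout mice (βKO) carried TRE-Cre in addition, so that doxycycline turned on the Cre recombinase in cells in which the insulin promoter drives rtTA, while the other islet cells kept Arid1a. Doxycycline was given at 1 g/L in the drinking water for 2 weeks. Partial pancreatectomy (PPx), which removes part of the pancreas and prompts the remaining β cells to divide, was performed 1 week after its withdrawal. Islets were taken at baseline from 4 control and 3 βKO mice and at 6 days after PPx from 4 control and 4 βKO mice, 1 library a mouse. The product of Arid1a is a subunit of the SWI/SNF complex, which slides and ejects nucleosomes. Whole islets were used, so that a change in the mix of cells and a change within β cells could not be told apart.

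Translation begins when eIF2, charged with GTP and the initiator methionyl-tRNA, joins the small ribosomal subunit together with eIF1A, eIF3 and eIF5, and the eIF4 factors bring the capped mRNA. Elongation factors then deliver each aminoacyl-tRNA (eEF1) and move the ribosome along (eEF2), and the tRNA synthetases load each tRNA with its amino acid, with separate sets of enzymes for cytosol and mitochondria. The β cell makes very large amounts of proinsulin. Its translation is held in check by phosphorylation of the α subunit of eIF2, and loss of the eIF2 kinase PERK causes diabetes. Several synthetase genes are known targets of ATF4, the factor translated when eIF2 is phosphorylated, through C/EBP-ATF response elements in their promoters.

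The promoters that met the authors' threshold in at least 1 comparison are shown first, since the counts below rest on them. Each run holds the 100 bases just before the gene's RefSeq start (build GRCm38.p6), 5′ to 3′ on the gene's strand. Runs are shown for 8 genes whose RefSeq promoter was in the table used and whose peak held no other gene's start. Capitals mark the GC box GGGCGG, the E-box CACGTG, the ETS motif CCGGAAG, the YY1 motif AAGATGGC and the C/EBP-ATF response element TGATGCAA, on either strand.
Eif1ax (chrX:159372078-159372177, plus strand): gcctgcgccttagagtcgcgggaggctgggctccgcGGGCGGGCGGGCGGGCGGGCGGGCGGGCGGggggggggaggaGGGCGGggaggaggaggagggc
Eif2s3y (chrY:1010495-1010594, plus strand): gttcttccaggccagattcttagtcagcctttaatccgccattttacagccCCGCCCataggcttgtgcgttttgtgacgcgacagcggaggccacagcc
Eif5 (chr12:111538001-111538100, plus strand): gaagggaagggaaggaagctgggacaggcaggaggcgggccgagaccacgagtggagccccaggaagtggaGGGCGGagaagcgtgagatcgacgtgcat
Eef1e1 (chr13:38659029-38659128, minus strand): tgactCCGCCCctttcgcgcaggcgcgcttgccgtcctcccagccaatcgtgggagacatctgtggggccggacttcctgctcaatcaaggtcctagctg
Eef2k (chr7:120842731-120842830, plus strand): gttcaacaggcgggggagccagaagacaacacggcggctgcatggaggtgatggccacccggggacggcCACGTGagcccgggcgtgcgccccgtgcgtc
Gars (chr6:55037901-55038000, plus strand): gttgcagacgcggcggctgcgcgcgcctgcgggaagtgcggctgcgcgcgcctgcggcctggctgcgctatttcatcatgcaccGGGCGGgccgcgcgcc
Mars1 (chr10:127311787-127311886, minus strand): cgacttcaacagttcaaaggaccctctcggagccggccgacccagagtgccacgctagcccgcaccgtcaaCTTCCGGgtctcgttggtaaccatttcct
Mars2 (chr1:55237077-55237176, plus strand): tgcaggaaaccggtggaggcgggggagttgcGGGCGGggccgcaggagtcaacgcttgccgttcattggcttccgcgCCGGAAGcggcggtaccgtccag
GC boxes stood in 6 of these 8 runs, 8 overlapping or neighbouring copies of them at Eif1ax. The ETS motif stood in the runs of Mars1 and Mars2, and an E-box in that of Eef2k. No such count was made over runs of 100 bases of other promoters.

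The C/EBP-ATF response element, searched only as the exact letters TGATGCAA and without its variants, was the rarest of the motifs in accessible promoters. Among members it was found in the windows of Aars, Iars and Tars, the cytosolic alanyl-, isoleucyl- and threonyl-tRNA synthetase genes. The runs of 60 bases that hold it upstream of the start are shown for Aars and Tars, with the element in capitals. In Iars it lay past the start.
Aars (chr8:111033704-111033763, plus strand): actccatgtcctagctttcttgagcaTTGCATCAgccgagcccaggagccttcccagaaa
Tars (chr15:11399659-11399718, minus strand): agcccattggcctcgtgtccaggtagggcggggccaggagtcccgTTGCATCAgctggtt
In both genes the element was read on the strand opposite to transcription. None of the 3 promoters met the authors' threshold in any comparison, as described below.

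All levels, changes and FDR values below are those of the authors' deposited tables, unless they are called approximate. A level is the log2 concentration, that is the log2 of the mean normalised read count of a group at a peak, and a change is the difference of 2 such levels. The tables give group values only, so the spread between mice enters through the authors' p-values, and the precision of a change is given as an approximate standard error (SE) derived from the change and its p-value. Its median over the member peaks after PPx was 0.39. A peak was called higher or lower when the authors' FDR from DiffBind was under 0.05. Over all peaks, βKO islets exceeded control islets at the median by 0.61 after PPx and by 0.00 before it, so that each value after PPx is to be read against that shift. At the targeted gene, 1 Arid1a peak, in exon 9, was listed: it stood at 1.21 in control and 5.49 in βKO islets before PPx, and was called in 0 of 4 and 3 of 3 libraries. After PPx it stood at 0.40 and 4.04, in 0 of 4 and 3 of 4 libraries. The sources used here do not give the floxed exons, so this peak does not check the deletion. Of the β cell markers looked for, 5 of 9 had a peak after PPx (G6pc2, Ins1, Mafa, Nkx6-1 and Slc30a8), and of the markers of α, δ and PP cells 3 of 5. No peak was listed for any of 7 acinar markers, and at most 1 gene each had one among the duct, endothelial, stromal and leukocyte markers. After PPx the marker peaks also differed between genotypes: the median change was 0.66 for β cell markers, of which 2 peaks were called higher, and 0.10 for those of α, δ and PP cells (1 called). It was 0.47 at Col1a2 (stroma), 0.21 at Cdh5 (endothelium) and 0.94 at Ptprc (leukocytes), with none called. In βKO islets over time it was 1.08 for β cell markers and 0.55 for those of α, δ and PP cells. The part of the mix of cells in the members' changes was not tested.

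At 6 days after PPx nearly all peaks of translation genes had higher values in βKO than in control islets, by about as much as other peaks. Of the 74 member peaks, 9 were called higher (12.2%, against 9.88% of all peaks) and 0 were called lower (0.0839% of all peaks were), and no member had an unadjusted p under 0.05 in the lower direction. The median change of the members was 0.69, against 0.61 for all peaks. Among promoter peaks 7 of 61 members were called, against 14.3% of all promoter peaks. Like promoters, that is promoter peaks in the same of 10 bins of concentration, were called at a rate that would give 8.05 of 61. The members' median there was 0.73 against 0.71, and 32 member promoters lay above the median of like promoters and 26 below it. The share called was thus near the background, and 71 of 74 members had a positive change beside 90.3% of all peaks.

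**Figure D1:**
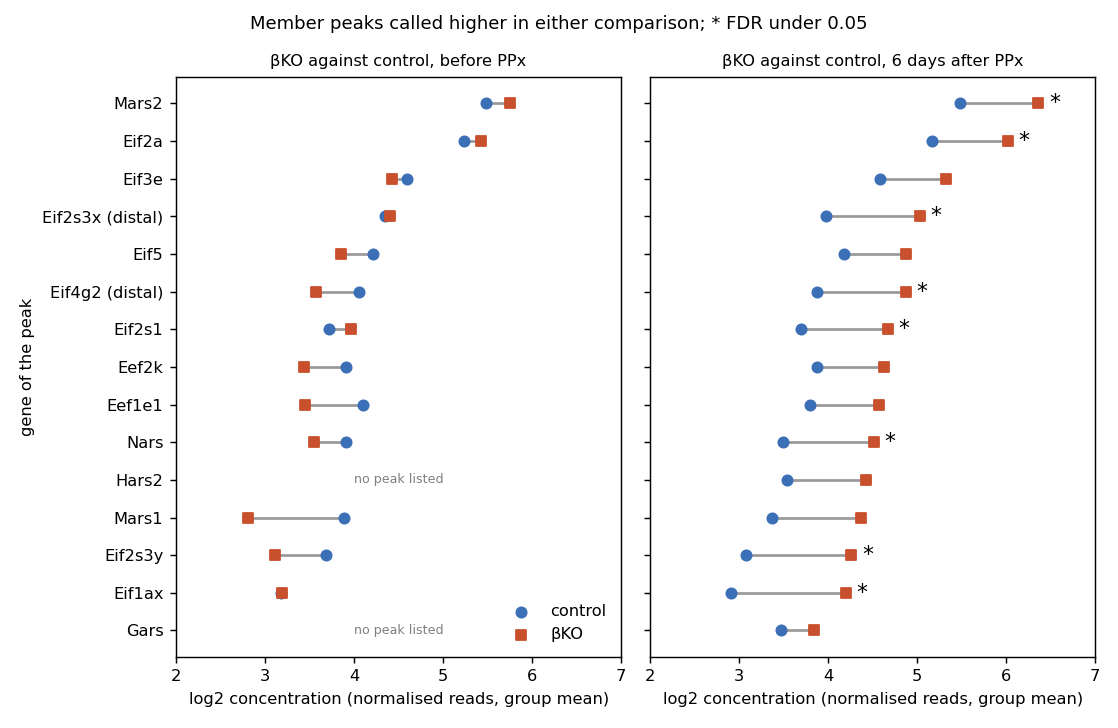
Log2 concentration (x axis) of control (circles) and βKO islets (squares) at 15 peaks called higher after PPx, in βKO against control or in βKO against its own baseline, with the genes on the y axis. Left, before PPx; right, 6 days after PPx; asterisks mark an FDR under 0.05 in the comparison plotted. After PPx βKO lies to the right of control at all 15 peaks, by 0.38 at Gars to 1.29 at Eif1ax; before PPx the order is mixed, and Gars and Hars2 were not listed.

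Of the factors that form the 43S complex and choose the start codon, 5 of 13 peaks were called (38.5%, against 9.88% of all peaks). At promoters 4 of 12 were called (33.3%, against 14.3% of all promoter peaks). The median change of the 13 peaks was 0.83, against 0.61 for all peaks. The 12 promoters lay 0.09 above like promoters at the median, and no difference between roles was tested. At 2 of the 5 called peaks, Eif2a and Eif2s1, the peak also holds the start of a neighbouring gene. The eIF2 heterotrimer accounted for 3 of the 5. Eif2s1, which encodes the α subunit that the stress kinases phosphorylate, stood at 3.70 in control and 4.67 in βKO islets, a change of 0.97 (approximate SE 0.34, FDR 0.0436). The γ subunit, which binds GTP and the initiator tRNA, is encoded by an X-linked and a Y-linked copy. The Eif2s3y promoter rose from 3.08 in control to 4.26 in βKO islets, a change of 1.18 (SE 0.39, FDR 0.0384), with a called peak in 1 of 4 control but 4 of 4 βKO libraries. At Eif2s3x the called peak was distal (chrX:94177613-94178213), at 3.98 and 5.03, a change of 1.05 (FDR 0.0386). The Eif2s3x promoter itself stood at 2.89 and 3.56, a change of 0.67 (SE 0.45), with an FDR of 1. The 2 copies are near-identical in sequence, and how reads shared between them were assigned is not given in the sources used here. Eif2s2, the β subunit, differed by 0.43 (SE 0.41, FDR 1).

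Factors of a single chain completed that group. Eif1ax, whose product eIF1A promotes scanning, had the largest change of any member, from 2.91 to 4.20 (1.29, SE 0.45, 2.45-fold, FDR 0.0425). The peak was called in no control library and in 2 of the 4 βKO libraries. Its autosomal relative Eif1a differed by 0.77 (SE 0.34, FDR 0.0772). Eif2a, which encodes an initiation factor distinct from the eIF2 subunits, stood at 5.17 and 6.02, a change of 0.85 (SE 0.31, FDR 0.0475). In eIF2B, the exchange factor that recharges eIF2 with GTP, the promoter of Eif2b3 differed by 1.28 (2.46 and 3.73, SE 0.50), as much as Eif1ax, but the authors' FDR was 1. Eif2b5 differed by 0.83 (FDR 1) and Eif2b2 by 0.39 (FDR 0.401).

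The FDR of 1 at Eif2b3 was no isolated case. The authors' tables give an FDR of 1 to 22 of the 74 member peaks after PPx, and the median concentration of these was 3.23 against 4.00 for all members. A member with that value could not be called, whatever its change. Adjusted over all listed peaks instead (Benjamini-Hochberg), 0 of the 9 called members stayed under 0.05, while 551 peaks elsewhere in the table did. Relative to the median of all peaks, 0 members differed (approximate normal test, Benjamini-Hochberg over all peaks).

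The other initiation factors gave 1 call. In eIF3, the large scaffold that holds the small subunit open for mRNA, 0 of 8 peaks were called, with changes from 0.04 at an Eif3h exon to 0.88 at the Eif3a promoter. Eif3f was the strongest of its peaks (5.74 and 6.30, change 0.56, FDR 0.174). Among the cap-binding factors and helicases 1 of 8 was called (12.5%, against 9.88% of all peaks). It was a distal peak annotated to Eif4g2 (chr7:111122488-111123088), a relative of eIF4G that supports cap-independent initiation, at 3.87 and 4.87 (change 1.00, SE 0.34, FDR 0.0396). The Eif4g2 promoter differed by 0.65 (FDR 0.142). Eif4e, which binds the mRNA cap, differed by 1.00 (SE 0.41, FDR 0.0639), and Eif4a1, the helicase, by 0.26 (FDR 0.551). The inhibitors of eIF4E, Eif4ebp1 and Eif4ebp2, differed by 0.85 (FDR 0.0777) and 0.83 (FDR 1).

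In the elongation step 0 of 9 factor peaks and 0 of 5 peaks of modifier genes were called, against 9.88% of all peaks. Eef1a1, which carries aminoacyl-tRNA to the ribosome, was the strongest (4.78 and 5.51, change 0.73, SE 0.32, FDR 0.0761). Eef1d, a subunit of its exchange factor, differed by 0.81 (FDR 0.102), with a called peak in 0 of 4 control and in 4 of 4 βKO libraries. Eef2 lay on the other side of zero. Its promoter (chr10:81177982-81178582), for the translocase that moves the ribosome, stood at 4.37 in control and 3.73 in βKO islets, a change of -0.65 (SE 0.42), with an FDR of 0.196. Eif5a, whose product relieves ribosome stalling, stood at 4.22 and 4.18 (change -0.04, FDR 0.929). A peak in the 3′ UTR of Lars2 had the third negative value, -0.10 (FDR 0.758). None of these 3 was called lower. Eef2k, the kinase that switches eEF2 off, had 3 peaks with changes from 0.48 to 0.76 and no call.

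Of the synthetases, 1 of 12 cytosolic (8.33%) and 2 of 16 mitochondrial peaks (12.5%) were called, against 9.88% of all peaks. Among all promoter peaks 14.3% were called. Nars, the cytosolic asparaginyl-tRNA synthetase gene, rose from 3.49 in control to 4.51 in βKO islets (1.02, SE 0.36, FDR 0.0436) and was called in 0 of 4 and 3 of 4 libraries. Mars2, for the mitochondrial methionyl enzyme, was among the most accessible members, at 5.48 and 6.36 (0.88, SE 0.31, FDR 0.0425). Its cytosolic counterpart Mars1 was just outside the threshold, at 3.37 and 4.37 (1.00, SE 0.38, FDR 0.0510). Eif2a, with an FDR of 0.0475, was just inside. The 3 genes with the C/EBP-ATF element shown above differed by 0.64 (Aars, FDR 0.209), 0.25 (Iars, FDR 0.507) and 0.73 (Tars, FDR 0.0760). Tars had the highest level of the cytosolic synthetases, 5.71 and 6.44.

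**Figure D2:**
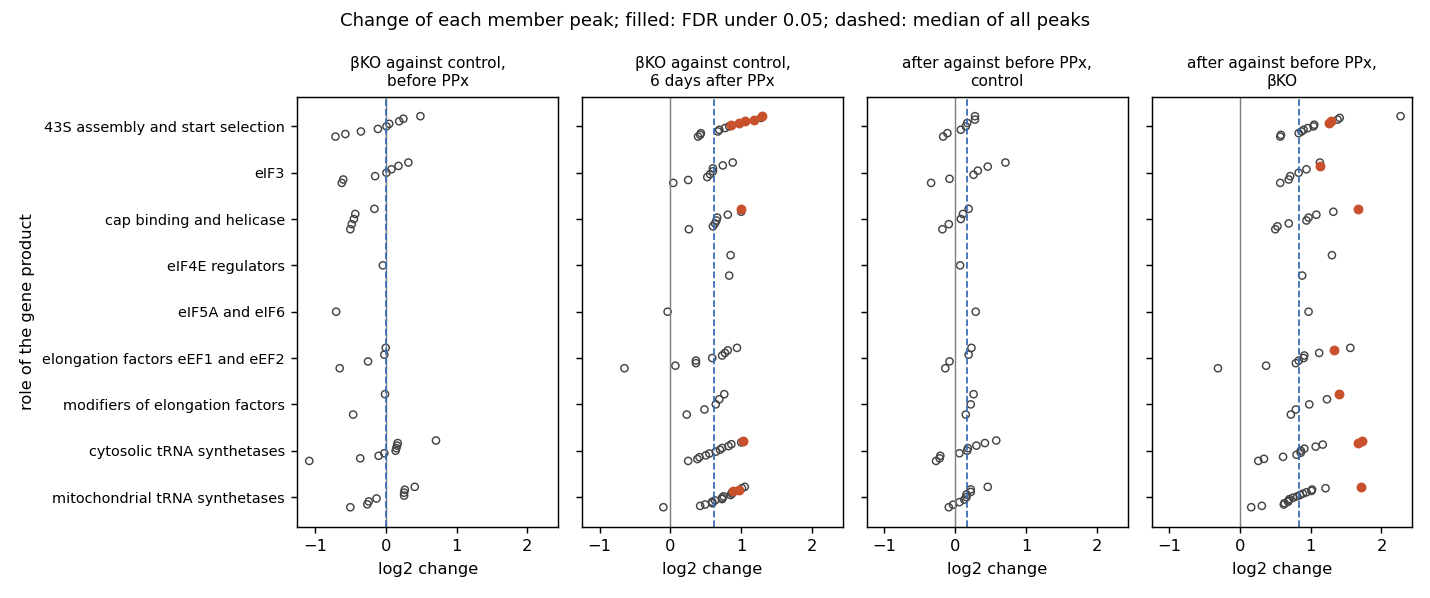
Log2 change (x axis) of every member peak in the 4 comparisons (panels), grouped by the role of the gene product (y axis; points are spread vertically for visibility). Filled points have an FDR under 0.05 and the dashed line is the median of all peaks; the points lie around that line in each panel, and the filled ones stand in the panels of βKO against control after PPx and of βKO over time.

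Set against promoters of like strength, most roles had medians within 0.1 of zero after PPx. The median excess over like promoters was 0.09 for the 12 promoters of 43S factors, -0.10 for the 6 of eIF3, 0.00 for the 7 of cap-binding factors and -0.01 for the 8 of elongation factors. It was -0.05 for the 11 cytosolic and 0.06 for the 12 mitochondrial synthetases, and 0.04 for the 2 modifiers of elongation factors. The 2 eIF4E regulators lay 0.22 above like promoters, and Eif5a, alone in its role, 0.73 below them (-0.73). These are descriptions with no test of a difference between roles.

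**Figure D3:**
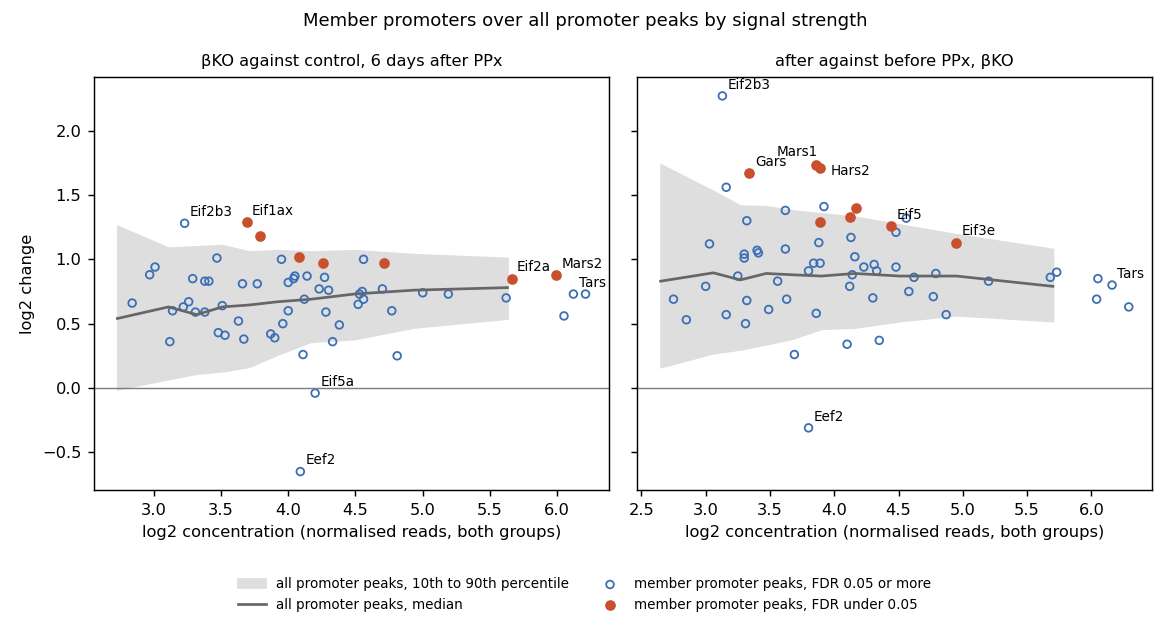
Log2 change (y axis) against log2 concentration over both groups (x axis) for the 61 member promoter peaks in βKO against control 6 days after PPx (left) and in βKO after against before PPx (right). The grey band spans the 10th to 90th percentile of all promoter peaks in each of 10 bins of concentration and the line is their median; most members lie in the band, Eif2b3 lies above it in both panels and Eef2 below it.

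More βKO than control libraries had a called peak at 57 of the 74 member peaks after PPx, and fewer at 3. Neither count was made over all peaks. Of the 74 member peaks, 24 were called in no control library (32.4%, against 28.4% of all peaks). All 4 βKO libraries had a called peak at 37 members (50% against 37.4%). No member peak was without a call in the βKO libraries, while 84 of all 13111 peaks were. Cars2, Eef1d and Tars2 were called in 0 control and 4 βKO libraries. The promoter of Tars2, for mitochondrial threonyl-tRNA synthetase, stood at 2.88 and 3.89 (change 1.01, FDR 1), and that of Cars2, for the cysteinyl enzyme, at 3.64 and 4.52 (0.87, FDR 0.0692). Depth per library is unknown here, and its part in these counts was not tested.

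Before PPx no translation gene was called between the genotypes. Of 46 member peaks 0 were higher and 0 lower, all with an FDR of 1, while 0.0128% of all peaks were called higher and 0% lower. At an unadjusted p under 0.05, 1 member was found. The median change was -0.07, against 0.00 for all peaks, with 18 positive and 27 negative values. Of all peaks 48.93% were positive. The 42 member promoters had a median of -0.07 against 0.04 for all promoter peaks, and 27 of them lay below the median of promoters of like strength. Mars1 had the lowest value, from 3.89 in control to 2.81 in βKO islets (change -1.08, SE 0.54, FDR 1), and was called in 2 of 4 and 0 of 3 libraries. Eif5a, at 4.17 and 3.47 (-0.70, FDR 1), had a called peak in 4 of 4 control but 0 of 3 βKO libraries. All 5 peaks of cap-binding factors had values under zero, with a median of -0.45, and so did 3 of the 4 elongation factor peaks, the fourth, Eef1g, standing at 0.00. Dars, for cytosolic aspartyl-tRNA synthetase, had the highest value, 0.71 (SE 0.53, FDR 1).

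In control islets no translation gene was called after against before PPx. Of 45 member peaks 0 were higher and 0 lower after PPx, as were 0% of all peaks in each direction, and 1 member had an unadjusted p under 0.05. The median change was 0.16, equal to that of all peaks. Positive values were found at 32 members and at 72.75% of all peaks. The highest value was an intronic Eif3h peak, from 3.96 to 4.67 (change 0.71, SE 0.31, FDR 0.999), and the lowest the Eif3a promoter (-0.34, FDR 0.999). Mars1 differed by -0.22 and Eef2 by 0.23, both with an FDR of 0.999.

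In βKO islets 9 of 72 member peaks were called higher after PPx (12.5%, against 7.44% of all peaks). None was called lower (0% of all peaks were), and no member had an unadjusted p under 0.05 in the lower direction. The members' median was 0.90 against 0.83 for all peaks. Positive values were found at 71 of 72 members and at 97.05% of all peaks. At promoters 8 of 61 members were called against 9.72% of all promoter peaks, and promoters of like strength would give 5.77. The median of the member promoters was 0.91 against 0.86, and 37 of 61 lay above the median of like promoters. This comparison shares its βKO libraries after PPx with the comparison of genotypes after PPx, so its values are no second observation of those libraries.

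Of 27 synthetase peaks 3 were called higher over time (11.1%, against 7.44% of all peaks and 9.72% of all promoter peaks). The median change of the 27 was 0.85, against 0.83 for all peaks. Among promoters these 3 had the largest called rises. Mars1 went from 2.64 before PPx to 4.37 after it (1.73, SE 0.48, 3.32-fold, FDR 0.0282), with 0 of 3 and 4 of 4 libraries called. Hars2, for the mitochondrial histidyl enzyme, went from 2.69 to 4.40 (1.71, SE 0.49, FDR 0.0303). Gars, whose glycyl-tRNA synthetase serves cytosol and mitochondria, went from 2.17 to 3.84 (1.67, SE 0.55, FDR 0.0425), with 0 of 3 and 3 of 4 libraries called. All 3 stood at 2.69 or lower before PPx, and none had a called peak in any of the 3 libraries of that group. Ears2, for mitochondrial glutamyl-tRNA synthetase, was just outside the threshold (1.21, FDR 0.0509), and Nars differed by 1.17 (FDR 0.0524).

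Among the initiation factors 4 of 31 peaks were called higher (12.9%, against 7.44% of all peaks and 9.72% of all promoter peaks). All 31 had a positive change, as had 97.05% of all peaks. The distal Eif4g2 peak went from 3.20 to 4.87 (1.67, SE 0.44, FDR 0.0251), the lowest FDR of the members here. Eif5, whose product makes eIF2 hydrolyse its GTP at the start codon, went from 3.60 to 4.86 (1.26, SE 0.41, FDR 0.0410). Eif2s3y went from 3.02 to 4.31 (1.29, FDR 0.0484) and Eif3e from 4.20 to 5.34 (1.13, SE 0.36, FDR 0.0406). Eif2b3 had the largest change of all members, from 1.47 to 3.73 (2.27, SE 0.67), again with an authors' FDR of 1; adjusted over all listed peaks its value was 0.0386.

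Eef1e1 was grouped with the elongation factors by its symbol here and above, but its product is a subunit of the multi-synthetase complex. Its promoter went from 3.22 to 4.55 (1.33, SE 0.42, FDR 0.0386). The Eef2k promoter went from 3.21 to 4.61 (1.40, SE 0.47, FDR 0.0431). The 1 negative value of the comparison was at Eef2 (3.97 and 3.65, -0.31, FDR 0.738). Adjusted over all listed peaks, 7 members were under 0.05, 6 of the authors' 9 and Eif2b3. So were 573 of all 12767 peaks. Relative to the median of all peaks, 0 members differed.

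The genotype differences before and after PPx come from separate mice and could be set against each other at the 46 member peaks that overlapped in both comparisons. Of these, 24 had a lower value in βKO before PPx and a higher one after it, 18 were higher in both, 3 lower in both (Eef2, Eif5a and Lars2) and 1, Eef1g, at 0.00 before. These patterns were not counted over all matched peaks. The difference after PPx was the larger one at 44 of 46 members (95.7%) and at 92.2% of all matched peaks. It exceeded that before by 0.75 at the median member and by 0.64 at the median of 7503 matched peaks. An approximate normal test of this interaction, adjusted over all matched peaks, called 0 members and 0 peaks in all, the lowest adjusted value among members being 0.301. At an unadjusted p under 0.05, 9 of 46 members (19.6%) and 14.4% of all matched peaks were found. Mars1 had the largest shift, 2.08 (SE 0.66, 95% interval 0.79 to 3.37), from -1.08 before to 1.00 after. Eif2s3y followed with 1.75 (SE 0.68) and the distal Eif4g2 peak with 1.48 (SE 0.57). Eef2 had the lowest shift, -0.40 (95% interval -1.54 to 0.74).

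**Figure D4:**
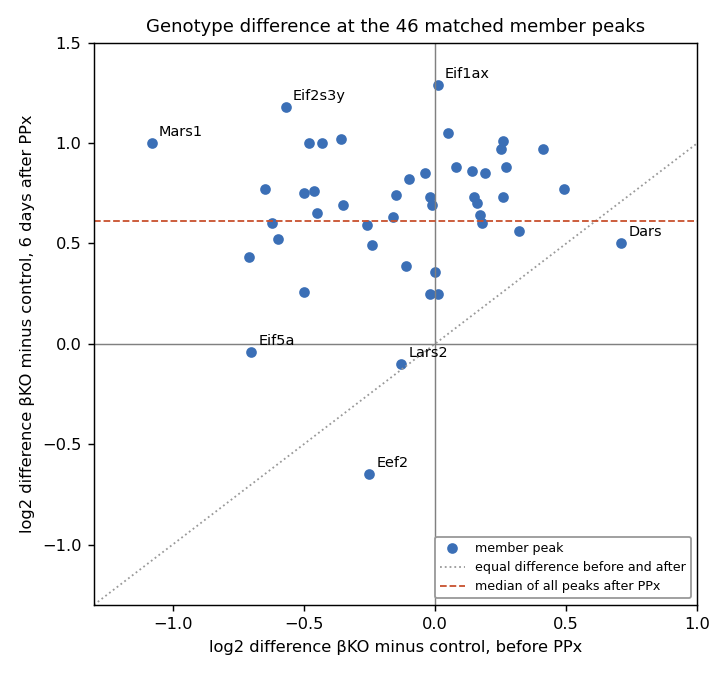
Log2 difference between βKO and control islets before PPx (x axis) and 6 days after PPx (y axis) at the 46 matched member peaks. The dashed line is the median of all peaks after PPx (0.61) and the dotted line marks an equal difference at both times; 44 of the 46 points lie above the dotted line, the exceptions being Dars and Eef2.

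Most member peaks sat at promoters, 61 of 74 after PPx, and 10 genes had more than 1 peak. The others were 7 distal, 3 intronic, 1 exonic, 1 downstream and 1 in the 3′ UTR of Lars2, and 2 of these 13 were called, the distal peaks of Eif2s3x and Eif4g2, against 2.81% of all peaks outside promoters. Their median change was 0.48 against 0.38 for all peaks outside promoters. The Lars2 peak was the most accessible of all members, at 6.80 in control and 6.71 in βKO islets, and stayed between 6.54 and 6.90 in every group and comparison. Fars2 and Wars2 each had a weak second peak, distal and intronic, with changes of 0.63 and 0.42 (both FDR 1). The second peaks of Eef1a1, Eef1aknmt and Eef1e1 differed by 0.36, 0.23 and 0.07 (all FDR 1), and the downstream peak of Tars by 0.55 (FDR 1). The intronic Nars2 peak had the lowest level, 1.82 and 2.87 (1.05, FDR 1).

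Several promoters were shared with a neighbour. A RefSeq start of the same gene lay within 42 of the 74 peaks, at a median of 57 bp from the centre. The start of another gene lay within 7 of the 61 promoter peaks (11.5%, against 17.7% of all promoter peaks). Among the called promoters these included Eif2a with Serp1 and Eif2s1 with Atp6v1d. Accessibility at such a peak cannot be assigned to either gene. Without the shared promoters 6 member peaks were called after PPx in place of 9. The uncalled ones were Ears2 with Ubfd1, Eif3k with Map4k1, Sars2 with Mrps12 and the second Eef1a1 peak with LOC115487230.

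The promoter letters were compared with those of other accessible promoters. The bases from 250 before to 50 after the RefSeq start were searched on both strands for 13 short motifs, with 1 window a gene whose start lay in a peak of the comparison of genotypes after PPx. This gave 44 member windows and 6385 windows in all. Median GC content was 60% in members and 62% in all. The C/EBP-ATF element TGATGCAA was in 3 member windows (6.82%) and in 0.38% of all. The E-box CACGTG was in 12 (27.3% against 10.3%) and the YY1 motif AAGATGGC in 8 (18.2% against 4.75%). Shares were closer for the ETS motif CCGGAAG (22.7% against 20.4%), the GC box GGGCGG (70.5% against 70.7%), the CCAAT box CCAAT (43.2% against 45.3%) and the NRF1 motif GCATGCGC (9.09% against 6.26%). The cyclic AMP response element (CRE) TGACGTCA was in 0 member windows and in 3.98% of all.

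The 5 shorter or related strings gave 45.5% against 36.6% for TGACG (a CRE core), 2.27% against 2.79% for TGACGTA (a CRE variant), 63.6% against 51.4% for CCACG, 38.6% against 31.9% for TTCCGG (an ETS core) and 13.6% against 12.1% for ACTACA. The CRE core is part of both longer CRE strings, the ETS core is part of the ETS motif read on the other strand, and the string CCACG can overlap the E-box, so these counts are not separate. Of the 42 member peaks with the gene's own window, 4 were called after PPx, and all 4 held a GC box, as did 30 of the 42. Of the less common motifs, 0 of 3 member peaks with the C/EBP-ATF element, 0 of 12 with the E-box, 1 of 8 with the YY1 motif and 2 of 9 with the ETS motif were called, with median changes of 0.64, 0.67, 0.75 and 0.83. A match is a description of these letters and was not tested as a binding site.

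Partner genes of the same process, a list of 47 that holds eIF2 kinases, release factors, poly(A)-binding proteins and mitochondrial factors, had 33 peaks of 27 genes in the comparison of genotypes after PPx. Of these 5 were called higher and 0 lower, against 9.88% of all peaks higher, and the median was 0.72 against 0.61 for all peaks. Abce1, which splits ribosomes for reuse, differed by 0.95 (4.94 and 5.89, FDR 0.0396) and Pabpc1, the main poly(A)-binding protein gene, by 0.90 (4.21 and 5.11, FDR 0.0485). Paip1, a partner of that protein, differed by 1.20 (3.62 and 4.82, FDR 0.0311). Eif2ak3, which encodes PERK, had 4 peaks, of which the distal one was called (3.70 and 4.98, 1.29, FDR 0.0265), while its promoter differed by 0.76 (FDR 0.0749). A distal peak annotated to Etf1, the stop codon release factor, was called too (1.31, FDR 0.0311). Atf4 differed by 0.47 (FDR 0.309). In βKO islets over time 6 of 33 partner peaks were called higher, against 7.44% of all peaks, and 0 lower. Their median was 1.03 against 0.83 for all peaks. Before PPx and in control islets 0 of 17 and 0 of 20 were called.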

How the data were processed

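ATAC-seq libraries of islets from 15 mice were compared by the authors, and 4 tables of their comparisons were used. Per the submitters' processing notes, the tools were cutadapt, BWA, MACS, DiffBind and ChIPseeker on mm10 (GRCm38). Versions were not given in the sources used here. The deposited tables give per peak the log2 concentration of each group, a log2 fold, a p-value, an FDR and a count of libraries with the peak called. The deposited log2 fold is the first group minus the second. Signs were reversed here, so that positive means higher in βKO or after PPx. Each table was scaled by the authors on its own, so a group's level can differ between tables. With group values only, depth per library stays unknown, leaving libraries out is not possible, and the tests rest on the authors' p-values.

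Rows repeating a position were merged into 1 peak, and an empty row was removed. The standard error was the log2 change divided by the normal quantile of its p-value; where p was 0.5 or more or the change under 0.1, the median of peaks of like concentration (20 bins) was taken. Like promoters are promoter peaks in the same of 10 bins of concentration. Peaks of different tables were matched on at least 1 bp. Coordinates are those of the tables. All 62 gene symbols matched the RefSeq gene table, and 49 had an entry in its promoter table. Named are called peaks, the strongest peak of each role, the 5 largest and 5 smallest changes of both comparisons with calls, peaks outside promoters and genes with several peaks, except 1 gene whose values are not reported here. Further genes, such as those with a motif or close to the threshold, were chosen after their values were seen. The members and lists were chosen with earlier results of these data known. Alternative thresholds, adjustments, scalings and peak sets were tried, and the steps were tested on simulated data. Python 3.11.15, pandas 2.3.3, numpy 2.4.6 and scipy 1.17.1 were used.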

Additional observations from a re-analysis of the deposited data

How the results depend on the processing

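The counts of called members depended on the threshold and the adjustment. After PPx in βKO against control, 9 of 74 members were higher at an FDR under 0.05 and 23 at an FDR under 0.1. Of all 13111 peaks, 3391 had an FDR under 0.1, in either direction. Member calls were 0 at an FDR under 0.01, 0 after a Benjamini-Hochberg adjustment over all listed peaks and 0 relative to the median of the table. In βKO after against before PPx the 9 of 72 members became 33 at an FDR under 0.1, 0 at an FDR under 0.01 and 0 relative to the median. Of all 12767 peaks there, 3942 had an FDR under 0.1, in either direction. The other 75 alternatives tried changed less. After PPx the 9 calls became 8 with the strongest peak of each gene and 7 at promoter peaks only. They became 6 without peaks that hold another gene's start. In βKO over time the 9 became 7 after the adjustment over all listed peaks, which left 573 of all peaks under 0.05. The 9 became 8 with the strongest peak of each gene and 8 at promoter peaks only. Medians moved by less than 0.1. No member was called lower in any comparison, and none was called before PPx or in control islets. The member median before PPx, -0.07, was 0.005 at peaks at or above the median concentration, on the other side of zero. Counting promoter peaks alone and leaving out peaks that hold another gene's start were added after seeing the data. Leaving out single libraries could not be run, since only group values were used. No paired analysis was possible because the tables hold no values per library. Weak peaks, whose FDR the authors give as 1, could not be called.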
